A study of Mus musculus with 2 samples.

Results

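Fibroblast growth factor (FGF) and hepatocyte growth factor (HGF) signalling was followed through 7 genes of the 27999 in the count matrix, chosen by symbol: the ligands Fgf2, Fgf7 and Hgf and the receptors Fgfr1, Fgfr2, Fgfr3 and Met. The data are droplet single-cell RNA libraries of mouse bone marrow, 1 of LepR-Cre;tdTomato+ cells (LepR_tdT) and 1 of bone marrow endothelial cells (EC), so no group has a replicate. Both libraries carry the genotype LepR-Cre;LSL-tdTomato on C57Bl/6JCrl at 3 to 4 months of age. Cre follows the leptin receptor gene there, so a cell turns red if it or an ancestor switched that gene on, and red cells are not all expressing it now. The protocol text numbers its samples in overlapping ranges, so whether tamoxifen gavage, or the stains for CD45, Ter119, LepR and injected VE-cadherin antibody, applied to either library cannot be told from the labels, and no gate or number of animals is given.

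FGFs bind receptor tyrosine kinases on neighbouring cells with heparan sulphate as a cofactor, and the activated receptor signals through docking adaptors to MAP kinase, phosphatidylinositol kinase and phospholipase C. Fgf7 (keratinocyte growth factor) is made by mesenchymal cells and binds the epithelial splice form of Fgfr2, while Fgf2 binds several receptors and lacks a secretion signal. Hgf is secreted as an inactive precursor, is cleaved by serine proteases and acts on the receptor Met. In the skeleton, Fgfr1, Fgfr2 and Fgfr3 are known for their part in bone and cartilage growth.

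On GRCm38 (GENCODE M21) Fgf2 lies at chr3:37348346-37410108 (+), Fgf7 at chr2:126034658-126091185 (+), Fgfr1 at chr8:25513654-25575718 (+), Fgfr2 at chr7:130162451-133123350 (-), Fgfr3 at chr5:33721674-33737068 (+), Hgf at chr5:16553495-16620152 (+) and Met at chr6:17463800-17573980 (+), and all 7 are protein-coding. Promoters are printed for Fgf7 and Fgfr2, the pair of members whose levels followed each other most closely over clusters, and for Hgf, the member with the opposite pattern. Each runs from 250 bases before to 50 bases after a RefSeq start on GRCm38.p6, on the gene's strand, with CG dinucleotides in capitals. The windows are chr2:126034408-126034707 (+) for Fgf7, chr7:130266759-130267058 (-) for Fgfr2 and chr5:16553245-16553544 (+) for Hgf, the first of its 2 listed starts.
Fgf7: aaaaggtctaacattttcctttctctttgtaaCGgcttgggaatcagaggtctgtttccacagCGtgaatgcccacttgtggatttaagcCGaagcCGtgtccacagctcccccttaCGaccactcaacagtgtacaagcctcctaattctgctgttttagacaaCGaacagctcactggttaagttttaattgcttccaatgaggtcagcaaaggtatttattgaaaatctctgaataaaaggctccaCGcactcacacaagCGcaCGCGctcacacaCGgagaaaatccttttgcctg
Fgfr2: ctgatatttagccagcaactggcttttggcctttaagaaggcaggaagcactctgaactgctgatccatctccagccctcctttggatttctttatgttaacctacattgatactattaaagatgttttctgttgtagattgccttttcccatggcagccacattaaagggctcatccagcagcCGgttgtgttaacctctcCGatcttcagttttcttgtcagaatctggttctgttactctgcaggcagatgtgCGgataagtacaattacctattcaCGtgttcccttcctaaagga
Hgf: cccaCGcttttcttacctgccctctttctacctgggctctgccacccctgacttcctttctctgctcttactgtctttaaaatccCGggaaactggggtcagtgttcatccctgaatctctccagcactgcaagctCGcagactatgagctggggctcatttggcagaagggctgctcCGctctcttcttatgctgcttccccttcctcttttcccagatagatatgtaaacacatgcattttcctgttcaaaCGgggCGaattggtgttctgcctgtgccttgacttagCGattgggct
These windows held 11 CG dinucleotides for Fgf7, 4 for Fgfr2 and 7 for Hgf, against a median of 7 and quartiles of 3 and 20 over 32851 promoters of the same length. The second Hgf start, with its window at chr5:16553651-16553950 (+), held 6. The windows of the remaining matched members held more, with 24 in Fgf2, 26 and 30 at 2 starts of Fgfr3 and 34 in Met. Of the motifs searched on both strands, an EBF motif was in 0.904% of all promoters and the ETS motif CCGGAA in 14.9%. The forkhead (FOX) motif GTAAACA was in 3.65% of all promoters of this length. The TATA box, searched as TATAAA, was in 13.6% of them. No match was found in the 8 windows of the 6 members with an entry except the forkhead motif, 24 bases before the printed Hgf start.

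The cell table of the authors held 4250 LepR_tdT cells with a median of 4347 UMIs (counted molecules) and 4536 EC cells with a median of 3084.5 UMIs. It names no cell types, so cells were clustered without the members and their pathway lists and named from markers, with "-like" for a name taken from RNA alone. Stromal-like cells were 69.7% of LepR_tdT (2961 cells) and endothelial-like cells 81.7% of EC (3705 cells, of which 3467 were sinusoidal-like and 238 arterial-like). LepR_tdT also held 251 osteolineage-like cells, 246 cells of an unnamed cluster led by the chemokine gene Cxcl5, 60 endothelial-like, 24 granulocyte-like, 20 erythroid-like and 17 pericyte-like cells. An unnamed cluster of shallow cells led by mitochondrial genes took 635 cells of LepR_tdT and another took 704 of EC, which also held 83 erythroid-like and 41 granulocyte-like cells. The labels were checked over whole libraries. Lepr was at 608 CPM (UMIs per 1000000 UMIs of the library or class) in LepR_tdT and 16.4 CPM in EC. Cdh5 (VE-cadherin) was at 9.48 CPM in LepR_tdT and 793 CPM in EC, and the tdTomato transcript at 18.0 CPM and 1.70 CPM. By class, Lepr was at 664 CPM in stromal-like cells and 16.9 CPM in endothelial-like cells of EC. Cdh5 was at 1.20 CPM in stromal-like and 839 CPM in endothelial-like cells, and tdTomato at 19.1 CPM and 1.86 CPM. Lepr, Cdh5 and the marker sums that follow belong to the lists that named the classes, so their class levels are no separate check. All 12 stromal markers had UMIs in stromal-like cells (50641 CPM summed), and all but Pdgfrb did in endothelial-like cells, at 411 CPM. The unnamed Cxcl5-led cluster also had UMIs of all 12, at 51368 CPM summed, so it is stromal by these markers. The 11 endothelial markers summed to 76.4 CPM in stromal-like and 8942 CPM in endothelial-like cells, with none at 0 in either. The libraries shared 42 cell barcodes.

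Stromal-like cells carried more Fgf7, Fgf2, Fgfr1, Fgfr2 and Fgfr3 RNA than endothelial-like cells, and less Hgf RNA, while Met had no UMI in either class. Counting a member as higher or lower when its ratio was at least 2-fold, 5 of the 6 measured members (at least 20 UMIs in both classes together) were higher and 1 was lower, where 21.5% of 12859 measured genes were higher and 17.8% were lower. The median log2 ratio was 4.65 over the measured members and 0.10 over all measured genes. With no cell classes at all, the LepR_tdT library against the EC library gave the same count of 5 higher and 1 lower, with 21.2% higher and 17.9% lower over 13456 genes. In both comparisons Fgf2, Fgf7 and Fgfr2 reached 20 UMIs only through the side where they are high, stromal-like cells or LepR_tdT. The members were also chosen with earlier results of these data known. These counts and medians are therefore a description and not a test. The classes come from separate libraries, so cell type and library cannot be told apart here. Intervals are exact 95% intervals and cover counting error only, and no p-value is given, since cells of 1 library are not replicates.

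**Figure D1:**
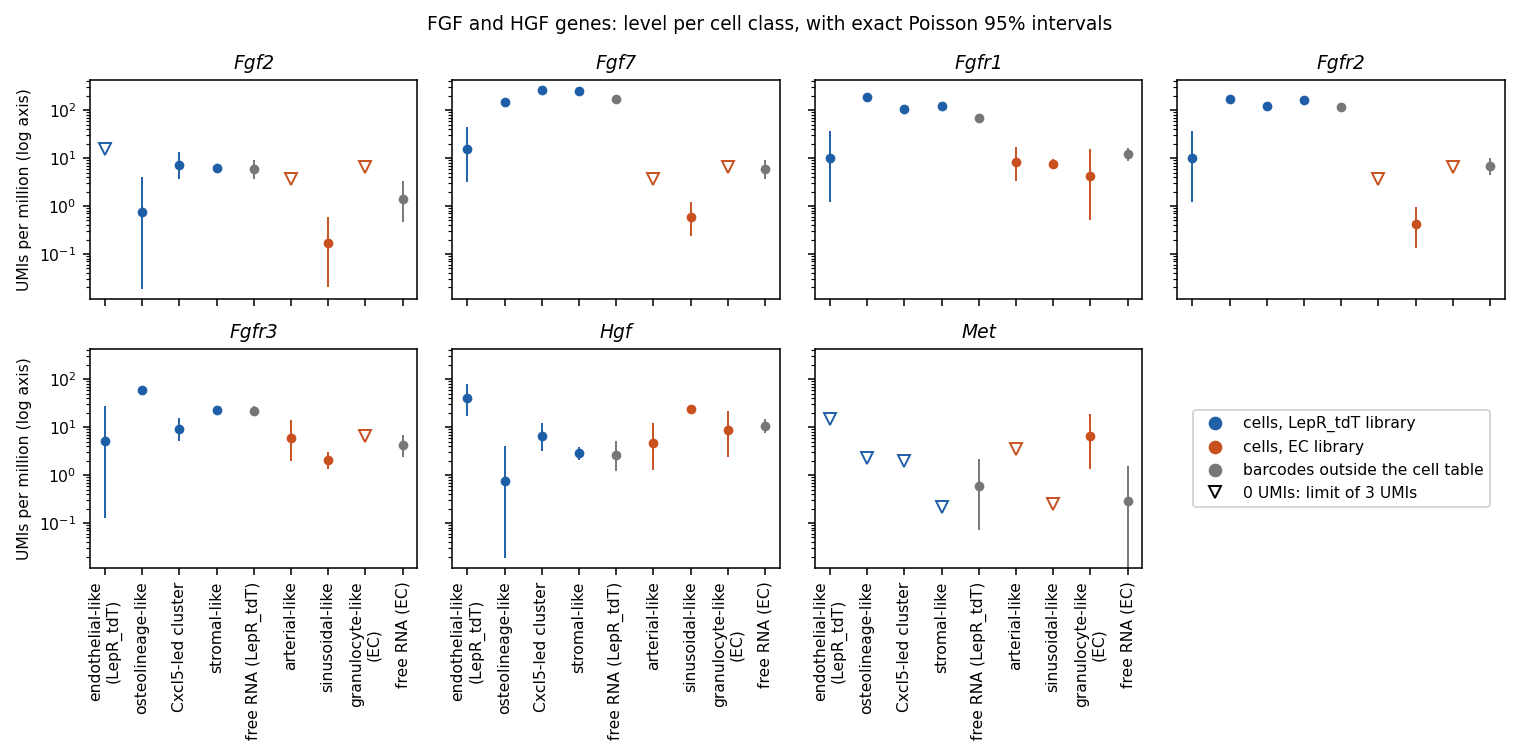
Level of each member (UMIs per 1000000 UMIs of the class, log axis) in cell classes of the LepR_tdT library (blue), of the EC library (orange) and in the free RNA of each library (grey). Points are summed counts with exact Poisson 95% intervals, and open triangles mark 0 UMIs at the limit that 3 UMIs would give. The panels of Fgf7 and Fgfr2 show stromal-like cells at 252 and 165 CPM and sinusoidal-like cells below 1 CPM, while Hgf is at 2.83 CPM in stromal-like and 23.6 CPM in sinusoidal-like cells.

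Among the ligands, Fgf7 had 3554 UMIs in stromal-like cells, or 252 CPM (244 to 260), and 7 UMIs in endothelial-like cells, or 0.544 CPM (0.219 to 1.12). The log2 ratio was 8.86 (7.81 to 10.17). The UMIs of the endothelial-like class lay in 7 different cells, 1 in each. Within LepR_tdT the Cxcl5-led cluster had 262 CPM (237 to 289) and the shallow cluster 222 CPM (180 to 270), both with intervals that overlap that of the stromal-like cells. Osteolineage-like cells stood below them at 150 CPM (130 to 172), and granulocyte-like cells at 31.9 CPM (14.6 to 60.6). The 17 pericyte-like cells had no Fgf7 UMI, which allows up to 42.7 CPM, below the stromal-like level. The erythroid-like cells read 231 CPM, but 15 of their 17 UMIs came from 1 cell. In EC the same 7 UMIs were all that any cell held, and all lay in sinusoidal-like cells, below the 5.96 CPM of free RNA (RNA outside cells) in that library.

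Fgf7 UMIs were seen in 64.0% of stromal-like cells (1895 of 2961, 62.2 to 65.7), at a median depth of 4617 UMIs. Endothelial-like cells of the same library, which serve as a class that should lack it, had them in 3 of 60 cells at a median of 3469 UMIs. After each cell was thinned to 1000 UMIs the shares were 22.4% of 2944 stromal-like cells (20.9 to 24.0) and 1.69% of 59 endothelial-like cells (0.0429 to 9.09). A share of cells with a UMI is bounded by depth, so the lower figure does not count the cells that express the gene.

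Fgf2 was scarce. Stromal-like cells had 86 UMIs in 85 cells, or 6.09 CPM (4.87 to 7.53), and endothelial-like cells of EC had 2 UMIs, or 0.155 CPM (0.0188 to 0.561), a log2 ratio of 5.29 (3.40 to 8.36). The Cxcl5-led cluster had 7.35 CPM (3.67 to 13.1) and the shallow LepR_tdT cluster 4.44 CPM from 2 UMIs, so these did not separate from stromal-like cells. The osteolineage-like class had 1 UMI, 0.742 CPM (0.0188 to 4.14). Free RNA of LepR_tdT read 5.98 CPM (3.65 to 9.24), the level of the stromal-like class. Nudt6, the annotated antisense partner that overlaps Fgf2 on the opposite strand, had 105 UMIs in the stromal-like class and 55 UMIs in the endothelial-like class, for a log2 ratio of 0.80 (0.32 to 1.30). The strand used in counting is not given in the sources used here, so Fgf2 and Nudt6 reads could be mixed where the genes overlap.

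All 3 FGF receptors were higher in stromal-like cells. Fgfr2 had 2326 UMIs there, 165 CPM (158 to 172), and 5 UMIs in endothelial-like cells, 0.388 CPM (0.126 to 0.906), for a log2 ratio of 8.73 (7.50 to 10.35). Fgfr1 had 1749 UMIs in stromal-like cells, 124 CPM (118 to 130), and 99 UMIs in endothelial-like cells, 7.69 CPM (6.25 to 9.36), for a log2 ratio of 4.01 (3.72 to 4.32). Fgfr3 had 328 UMIs in stromal-like cells, 23.2 CPM (20.8 to 25.9), and 30 UMIs in endothelial-like cells, 2.33 CPM (1.57 to 3.33), for a log2 ratio of 3.32 (2.78 to 3.91). In EC none of the 3 receptors stood above free RNA, which read 6.81 CPM for Fgfr2, 12.2 CPM (8.83 to 16.4) for Fgfr1 and 4.26 CPM (2.38 to 7.02) for Fgfr3. Gene counts do not separate the splice forms that decide which FGF an FGF receptor binds. The annotated span of Fgfr2 also reaches over Ctbp2 on the same strand, a gene with 663 UMIs in stromal-like and 660 UMIs in endothelial-like cells.

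The order of classes differed between the receptors. For Fgfr1 the osteolineage-like class was highest at 192 CPM (169 to 216), above stromal-like cells, while the Cxcl5-led cluster at 107 CPM (90.9 to 125), the shallow LepR_tdT cluster at 113 CPM (84.2 to 149) and the pericyte-like cells at 99.7 CPM (40.1 to 205, 7 UMIs) had intervals that overlap the stromal-like one. Granulocyte-like cells of LepR_tdT had 39.0 CPM (19.5 to 69.8). For Fgfr2 the osteolineage-like cells at 175 CPM (154 to 199), stromal-like cells and the shallow cluster at 140 CPM (107 to 179) overlapped, and the Cxcl5-led cluster was lower at 122 CPM (105 to 141), as were the pericyte-like cells at 14.2 CPM (0.361 to 79.4, 1 UMI). For Fgfr3 the osteolineage-like class was highest at 58.7 CPM (46.4 to 73.1), the shallow cluster at 26.6 CPM (13.8 to 46.5) overlapped the stromal-like class, and the Cxcl5-led cluster stood below it at 9.35 CPM (5.11 to 15.7). By intervals that do not overlap, the Cxcl5-led cells had less Fgfr2 and Fgfr3 than the stromal-like class, while their Fgf7 intervals overlapped. At a finer clustering the Fgfr2 intervals were again apart, at 144 CPM (132 to 157) in a Cxcl5-led cluster and 167 CPM (158 to 177) in the stromal-like one, but those of Fgfr3 overlapped, at 16.5 CPM (12.6 to 21.2) and 19.6 CPM (16.6 to 22.9).

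In stromal-like cells, Fgfr2 UMIs were seen in 51.0% and Fgfr1 UMIs in 43.1% of cells, and Fgfr3 UMIs in 9.96%. Thinned to 1000 UMIs these shares were 15.7%, 11.9% and 2.14%. In endothelial-like cells of EC, Fgfr1 had a UMI in 2.56% of cells (95 of 3705) and, thinned, in 0.580% of 3622 cells. In blood cells of EC, which should lack it, 2 of 41 granulocyte-like cells (4.88%, 0.596 to 16.5) and 0 of 37 erythroid-like cells had one after thinning, at median depths of 10519 and 828 UMIs, so the endothelial-like share is not read as above background. Free RNA was taken from barcodes outside the cell table with up to 100 UMIs, and an estimated 3.00% of the UMIs of endothelial-like cells were free RNA, judged from blood genes. With that share subtracted the log2 ratio of Fgfr1 was 4.05.

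**Figure D2:**
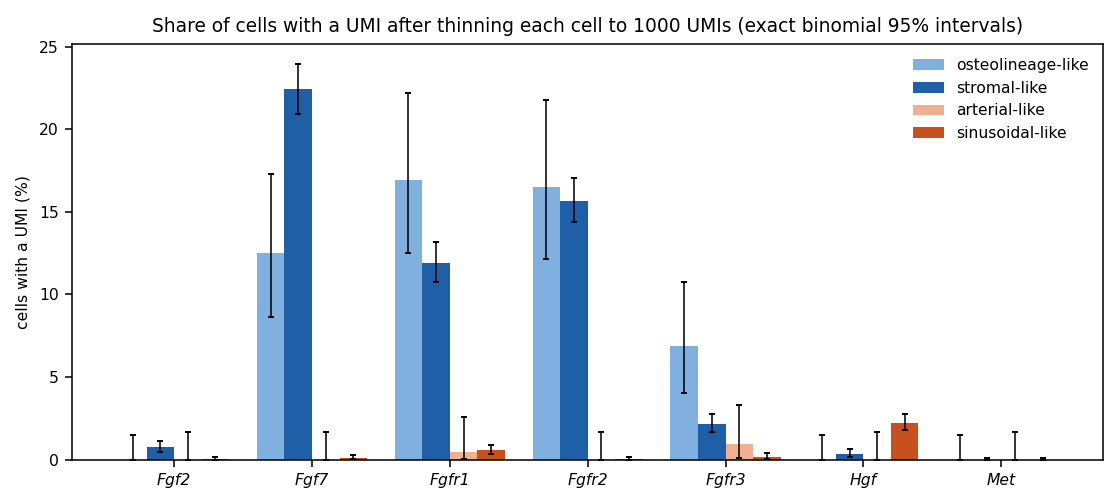
Percent of cells with at least 1 UMI of each member after every cell was thinned to 1000 UMIs, in osteolineage-like and stromal-like cells of LepR_tdT (blue) and arterial-like and sinusoidal-like cells of EC (orange). Bars start at 0 and error bars are exact binomial 95% intervals. Fgf7, Fgfr1 and Fgfr2 are seen in 22.4%, 11.9% and 15.7% of stromal-like cells, and Hgf in 2.23% of sinusoidal-like cells.

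Ligand and receptor UMIs were also compared within single stromal-like cells, all thinned to 1000 UMIs so that depth does not tie genes together. Fgf7 and Fgfr2 were both seen in 96 of 2944 cells, or 3.26% (2.65 to 3.97), where the product of their separate shares is 3.51%. Fgf7 and Fgfr1 were both seen in 88 cells, 2.99% (2.40 to 3.67), where the product is 2.67%. Fgfr1 and Fgfr2 were both seen in 53 cells, 1.80% (1.35 to 2.35), where the product is 1.87%. Each product lay inside the interval of the observed share, so neither shared nor separate detection was visible at this depth.

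Hgf ran the other way. Stromal-like cells had 40 UMIs, 2.83 CPM (2.02 to 3.86), and endothelial-like cells of EC had 288 UMIs in 239 cells, 22.4 CPM (19.9 to 25.1), a log2 ratio of -2.98 (-3.50 to -2.50), or 7.89-fold higher in the endothelial-like class. Free RNA held 2.69 CPM in LepR_tdT, the level of the stromal-like class, and 10.8 CPM (7.63 to 14.8) in EC, below the level of the endothelial-like class. The largest number in 1 cell was 9 UMIs, so the endothelial total did not come from a few cells. The shallow EC cluster had the highest level at 51.1 CPM (32.7 to 76.0), from 24 UMIs in 16 cells of a median 561.5 UMIs. In that unnamed cluster endothelial markers summed to 6956 CPM and megakaryocyte markers to 1278 CPM, beside 8942 CPM and 45.7 CPM in endothelial-like cells. Which of its cells carried the Hgf was not tested. Granulocyte-like cells of EC had 8.62 CPM (2.35 to 22.1) and erythroid-like cells 3.33 CPM (0.0844 to 18.6), from 4 UMIs and 1 UMI. In LepR_tdT the Cxcl5-led cluster had 10 UMIs, 6.68 CPM (3.20 to 12.3), with an interval that overlaps the stromal-like one. Overlap does not show equal levels, and no ratio of Hgf was taken for this cluster.

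Hgf UMIs were seen in 6.81% of sinusoidal-like cells (236 of 3467, 5.99 to 7.70) at a median of 3402 UMIs, and in 1.20% of erythroid-like cells of EC (1 of 83) at a median of 828 UMIs. After thinning they were seen in 0.340% of 2944 stromal-like cells (0.163 to 0.624), in 2.23% of 3406 sinusoidal-like cells (1.76 to 2.79) and in 0 of 37 erythroid-like cells. The 41 granulocyte-like cells of EC, with a median of 10519 UMIs, gave 9.76% before and 4.88% after thinning (2 cells, 0.596 to 16.5), so their share could not be set below that of sinusoidal-like cells, although their CPM was lower.

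Met, the receptor of Hgf, was not detectable in stromal or endothelial classes at this depth. No UMI fell in 2961 stromal-like, 251 osteolineage-like or 3705 endothelial-like cells, which allows levels of up to 0.213, 2.23 and 0.233 CPM. All 5 Met UMIs in cells lay in the granulocyte-like class, 2 of them in 1 cell of LepR_tdT and 3 in 3 cells of EC, where the level was 6.47 CPM (1.33 to 18.9). In EC that class had granulocyte markers at 120819 CPM summed, but also monocyte and macrophage markers at 6897 CPM and B lymphoid markers at 806 CPM. Which blood cell type carried the Met UMIs was not tested. Free RNA gave 2 Met UMIs in LepR_tdT and 1 in EC.

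Within the EC library, arterial-like cells had less Hgf RNA than sinusoidal-like cells. Only 3 members were measured: against 9.18% of 10920 genes higher and 7.07% lower in arterial-like than in sinusoidal-like cells, 1 member was higher, 1 lower and 1 neither. Hgf had 4 UMIs in 3 arterial-like cells, 4.79 CPM (1.31 to 12.3), and 284 UMIs in 236 sinusoidal-like cells, 23.6 CPM (20.9 to 26.5), a log2 ratio of -2.30 (-4.19 to -0.93). At a finer clustering, which gave 2 endothelial-like clusters no vessel name, it was -0.98, and after thinning it was at most -0.72, with 0 UMIs in the arterial-like class set to the limit of 3 UMIs. Fgfr3 had 5 UMIs in arterial-like cells, 5.99 CPM (1.94 to 14.0), and 25 UMIs in sinusoidal-like cells, 2.08 CPM (1.34 to 3.06), a log2 ratio of 1.53 with an interval from -0.21 to 2.94 that includes no difference. Fgfr1 was at 8.38 CPM (3.37 to 17.3) in arterial-like and 7.64 CPM (6.16 to 9.37) in sinusoidal-like cells, a log2 ratio of 0.13 (-1.22 to 1.23). Fgf2, Fgf7, Fgfr2 and Met had no UMI in arterial-like cells, where 0 allows up to 3.59 CPM.

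The sinusoidal-like cells fell into a cluster of 1317 cells led by the early response gene Apold1, a cluster of 2109 cells led by the adhesion gene Cxadr, and 41 cells led by the MHC class II gene H2-Aa. Hgf was at 26.4 CPM (22.2 to 31.2) in the Apold1-led, 14.3 CPM (1.73 to 51.6) in the H2-Aa-led and 21.6 CPM (18.2 to 25.4) in the Cxadr-led cluster, with overlapping intervals. A summed list of 12 immediate early and stress genes read 13299 CPM in the Apold1-led and 2373 CPM in the Cxadr-led cluster, and its part in the members' values was not tested. Without the Apold1-led cluster the log2 ratio of Hgf between stromal-like and endothelial-like cells was -2.79.

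**Figure D3:**
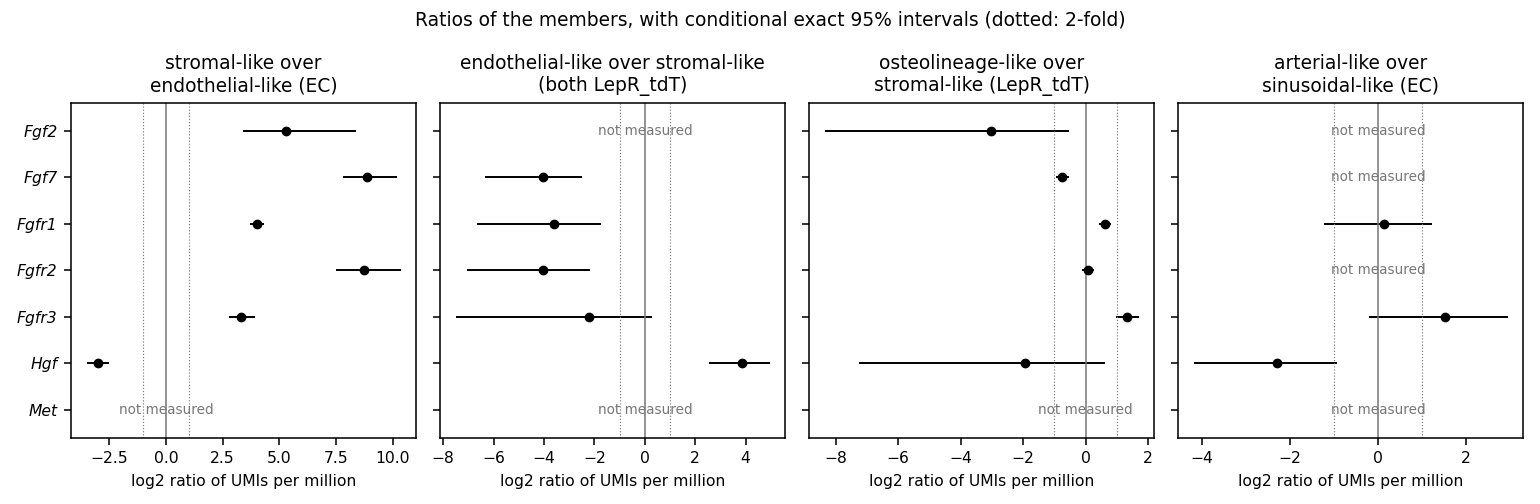
Log2 ratio of CPM for each member in 4 comparisons, with conditional exact 95% intervals; the first class named in each panel title is on top of the ratio, the solid line is no difference and dotted lines are 2-fold. Hgf is at -2.98 for stromal-like over endothelial-like cells and at 3.84 for endothelial-like over stromal-like cells of the same LepR_tdT library, while Fgf7 is at 8.86 and -4.05.

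Within the LepR_tdT library, osteolineage-like cells, led by Bmp3, Postn and Bglap, had more Fgfr3 RNA than stromal-like cells. Among 6 measured members 1 was higher and 2 were lower, where 5.75% of 11696 genes were higher and 8.77% lower. Fgfr3 had 79 UMIs in osteolineage-like cells, 58.7 CPM, and 328 UMIs in stromal-like cells, 23.2 CPM, a log2 ratio of 1.34 (0.96 to 1.69). Fgfr1 was at 192 CPM in osteolineage-like and 124 CPM in stromal-like cells, a log2 ratio of 0.63 (0.43 to 0.82) that stays under 2-fold. Fgf7 was at 150 CPM in osteolineage-like and 252 CPM in stromal-like cells, a log2 ratio of -0.75 (-0.96 to -0.54). Fgfr2 differed by 0.09 on the log2 scale (-0.11 to 0.28), at 175 CPM in osteolineage-like and 165 CPM in stromal-like cells.

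Both members counted as lower rest on 1 UMI each in the osteolineage-like class: Fgf2 with a log2 ratio of -3.04 (-8.36 to -0.52), and Hgf with -1.93 (-7.27 to 0.63), an interval that includes no difference. Erythroid markers differed between these classes, with 7 of 10 detected and 2979 CPM summed in osteolineage-like cells (Car1, Rhag and Ermap at 0) and 9 of 10 and 187 CPM in stromal-like cells (Rhag at 0). Granulocyte markers did not differ in this way, at 72.0 CPM summed in osteolineage-like and 77.1 CPM in stromal-like cells. The free RNA estimate that follows pools both lists, so its excess in osteolineage-like cells comes from the erythroid genes. The estimated share of free RNA, judged from blood genes, was 24.6% in osteolineage-like and 2.13% in stromal-like cells. Granulocyte genes alone show no such excess, so 24.6% is not read as the free RNA share of other genes. With the estimated share subtracted all the same, the log2 ratios were 1.60 for Fgfr3, 0.89 for Fgfr1 and at most -1.05 for Fgf2. The osteolineage-like count of Fgf2 was there set to the limit of 3 UMIs, and Hgf had no value left.

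At a finer clustering the stromal-like name went to 1 cluster led by Gpr50, and 2 neighbours led by Aldh1a2 and Cxcl5 stayed unnamed although 11 and 12 of the 12 stromal markers passed in them. Fgf7 was level over these clusters while Fgfr3 was not. Fgf7 was at 248 CPM in 798 cells led by Aldh1a2, a retinoic acid synthesis gene, at 251 CPM in 697 cells led by Cxcl5 and at 255 CPM in the 1712 cells led by Gpr50. Fgfr3 was at 31.3 CPM (26.2 to 37.1), 16.5 CPM (12.6 to 21.2) and 19.6 CPM (16.6 to 22.9) in the same clusters. The Aldh1a2-led cells thus had the highest Fgfr3 level of these 3 clusters, with an interval apart from the others, and stood below the osteolineage-like cells.

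The 60 endothelial-like cells inside LepR_tdT allow a comparison in which both classes come from the same library. It was added after the counts were seen. Of 5 measured members 1 was higher and 4 were lower than in stromal-like cells, where 17.3% of 9765 genes were higher and 20.5% lower. Hgf had 8 UMIs in these endothelial-like cells, 40.5 CPM (17.5 to 79.7), and 40 UMIs in stromal-like cells, 2.83 CPM, a log2 ratio of 3.84 (2.53 to 4.95). The 8 UMIs came from 5 cells, 4 of them from 1 cell, and 7 from the 23 Apold1-led cells; without that cluster the log2 ratio was 1.79. Fgf7 had 3 UMIs, 15.2 CPM, in endothelial-like cells and 252 CPM in stromal-like cells, a log2 ratio of -4.05 (-6.33 to -2.50). Fgfr1 and Fgfr2 had 2 UMIs each in endothelial-like cells, 10.1 CPM, with log2 ratios of -3.61 (-6.66 to -1.76) and -4.03 (-7.07 to -2.17). Fgfr3 had 1 UMI and a log2 ratio of -2.20 (-7.51 to 0.29), and Fgf2 had 0 UMIs, which allows up to 15.2 CPM and does not separate it from the 6.09 CPM of stromal-like cells.

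The 5 measured members had ratios of the same sign by class as between the libraries, that of Fgfr3 with an interval that includes no difference. All 5 reached the minimum of 20 UMIs through the stromal-like class alone, so their count is a description and not a test. After thinning, which left Fgfr1 and Fgfr2 with 0 UMIs in the endothelial-like cells, their log2 ratios were at most -1.33 and -1.77, that of Fgfr3 was -0.36, and Hgf did not reach 20 UMIs. Both Fgfr1 UMIs lay in the Apold1-led cells, and without that cluster the log2 ratio of Fgfr1 was at most -2.07, while that of Fgfr3 had a value of -1.24. With free RNA subtracted the Fgfr3 count of the endothelial-like cells was set to the limit of 3 UMIs, and the log2 ratio was at most -0.60. Stromal markers were also found in the 60 cells, 12 of 12 with 2625 CPM summed, against 50641 CPM in stromal-like cells, and the free RNA of LepR_tdT held 172 CPM of Fgf7, 117 CPM of Fgfr2 and 69.1 CPM of Fgfr1. The part of stromal RNA in the few FGF and FGF receptor UMIs of these cells was not tested.

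Over the 9 clusters by library with at least 50 cells, the levels of Fgf7 and Fgfr2 had a Pearson correlation of 0.995 (log2 of CPM + 1), and Fgf7 and Hgf of -0.60. The genes with the pattern most like Fgf7 were Agt (angiotensinogen), Dpep1 and C1s1, at correlations of 0.999, 0.999 and 0.999. Those most like Fgfr2 were Adamts2, Abi3bp and Ltbp1, all of the extracellular matrix, at 1.000, 0.999 and 0.999, and those most like Fgf2 were Il1rn, Nt5e and Atp6v1c2, at 0.989, 0.983 and 0.982. Ak1, Rcn1 and Snx21 were closest to Fgfr1, at 0.988, 0.988 and 0.988, and Flrt2, Foxc2 and Lin37 to Fgfr3, at 0.987, 0.980 and 0.977. Gid4, Tnfaip8 and Afap1l2 were closest to Hgf, with correlations of 0.958 for Gid4 and 0.953 for Tnfaip8. The 9 points come from 2 libraries and share their depth and free RNA, so these values are a description and carry no p-value.

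The other FGF ligands were few, and those measured did not all go the same way. Of 21 further FGF and HGF family ligands, 5 were measured between stromal-like and endothelial-like cells and 11 had no UMI in either class. Of the 5, 2 were higher, 2 lower and 1 neither, beside 21.5% higher and 17.8% lower over all measured genes. Their median log2 ratio was 0.85. Fgf23, the phosphate-regulating hormone known from bone, had 0 UMIs in stromal-like cells and 227 UMIs in endothelial-like cells, 17.6 CPM, a log2 ratio of at most -6.37. All 227 lay in sinusoidal-like cells, at 33.3 CPM (28.5 to 38.6) in the Apold1-led and 7.34 CPM (5.43 to 9.70) in the Cxadr-led cluster, and none in arterial-like cells. Fgf23 had no UMI in osteolineage-like cells, which allows up to 2.23 CPM. Fgf9 had 0 UMIs in stromal-like and 20 UMIs in endothelial-like cells, at most -2.87. Fgf13 and Fgf11, intracellular members of the family, had log2 ratios of 6.10 (3.57 to 11.42, 75 UMIs in the stromal-like and 1 UMI in the endothelial-like class) and 2.58 (1.43 to 3.98). Fgf1 was at 6.73 CPM in stromal-like cells and, within EC, at 3.59 CPM in arterial-like and 3.74 CPM in sinusoidal-like cells.

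Of 8 further receptors and coreceptors 3 were measured. Fgfrl1, a receptor without a kinase domain, and Flrt2, a leucine-rich transmembrane protein of the family that binds FGF receptors, were higher in stromal-like cells by log2 ratios of 4.13 (846 UMIs in the stromal-like class, 44 in the endothelial-like) and 2.92 (447 in the stromal-like, 54 in the endothelial-like). Flrt3, of the same family, was lower at -6.98 (-8.61 to -5.75), with 0.354 CPM in stromal-like and 44.7 CPM in endothelial-like cells. Flrt3 was also lower in arterial-like cells, 12.0 CPM, than in sinusoidal-like cells, 46.9 CPM, a log2 ratio of -1.97 (-3.04 to -1.08). In osteolineage-like against stromal-like cells Flrt2 was higher by 1.67 (1.38 to 1.95), as Fgfr3 was, and Fgfrl1 was lower at -1.05 (-1.55 to -0.59).

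Of a list of 10 genes that govern HGF cleavage only 4 were measured. All 4 were lower in stromal-like than in endothelial-like cells, beside 17.8% lower and 21.5% higher over all measured genes. Their median log2 ratio was -4.62. They were the urokinase gene Plau (-7.25, -12.56 to -4.75), the tissue plasminogen activator gene Plat (-2.72, -4.44 to -1.34), the protease gene Hpn, or hepsin (-2.94, -4.00 to -2.02), and Spint2 (-6.30, -7.11 to -5.60), which encodes an inhibitor of HGF-activating proteases. The measured genes thus hold activators and an inhibitor that went the same way. The minimum of 20 UMIs was over both classes together, so the endothelial-like class alone could supply it. The count of 4 and its median are therefore a description and not a test. Spint2 had the most UMIs among these 4 genes, at 1.13 CPM in stromal-like and 89.4 CPM in endothelial-like cells. Within EC they parted by vessel type: Plat was higher in arterial-like cells, 24.0 CPM, than in sinusoidal-like cells, 0.830 CPM, a log2 ratio of 4.85 (3.69 to 6.11), and Spint2 was lower, at 25.2 CPM in arterial-like and 93.8 CPM in sinusoidal-like cells, a log2 ratio of -1.90 (-2.60 to -1.28). Spint2 also went with the class inside LepR_tdT, at 137 CPM in the endothelial-like class and 1.13 CPM in the stromal-like one, a log2 ratio of 6.91 (5.97 to 7.90).

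Heparan sulphate carriers and enzymes held genes past 2-fold in each direction. Of 21 measured genes of 24, 8 were higher, 6 lower and 7 neither in stromal-like against endothelial-like cells, with a median log2 ratio of 0.62, where 21.5% of all measured genes were higher and 17.8% lower. The core proteins of the syndecan and glypican families stood highest, with Sdc2 at 375 CPM in stromal-like and 0.233 CPM in endothelial-like cells (log2 ratio 10.65, 9.11 to 12.93), Gpc4 at 10.30 (7.82 to 15.60) and Gpc1 at 6.80 (5.43 to 8.68). Gpc6 had 2271 UMIs in stromal-like cells against 0 for the endothelial-like class, a log2 ratio of at least 9.43. Between osteolineage-like and stromal-like cells 3 of 20 measured genes of this list were higher and 2 lower, beside 5.75% and 8.77% of all measured genes, with Gpc1 and Sdc3 higher by 2.53 (2.31 to 2.75) and 2.76 (2.41 to 3.10). In arterial-like against sinusoidal-like cells 1 of 16 was higher and 4 were lower, beside 9.18% and 7.07% of all measured genes: the sulphotransferase gene Hs3st1 was lower at -1.72 (-2.50 to -1.03), and the sulphatase gene Sulf1 was higher at 1.85 (0.08 to 3.31) from 5 UMIs in the arterial-like class.

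Most adaptors stayed under 2-fold: 10 of 13 were neither, 2 higher and 1 lower, beside 21.5% higher and 17.8% lower over all measured genes. Their median log2 ratio was -0.24. Plcg1, the phospholipase C gene of this pathway and also of VEGF receptors, was lower in stromal-like cells, 11.6 CPM, than in endothelial-like cells, 67.2 CPM, at -2.54 (-2.79 to -2.30). Frs3, a docking adaptor of FGF receptors, and Crkl were higher at 1.45 (0.72 to 2.24) and 1.28 (0.13 to 2.57), and Shc1 was under 2-fold at 0.73 (0.60 to 0.85). Of 12 measured adaptors none passed 2-fold in arterial-like against sinusoidal-like cells, beside 9.18% higher and 7.07% lower over all measured genes. In osteolineage-like against stromal-like cells 1 of 13, Crkl with 1 UMI, was lower, beside 5.75% higher and 8.77% lower. Inside LepR_tdT 3 of 11 were higher and 3 lower in endothelial-like than in stromal-like cells, beside 17.3% higher and 20.5% lower.

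Among feedback regulators and target genes of FGF signalling, 7 of 15 measured genes were higher, 1 lower and 7 neither in stromal-like against endothelial-like cells, with a median log2 ratio of 0.60, beside 21.5% higher and 17.8% lower over all measured genes. Spry1, a Sprouty inhibitor of receptor tyrosine kinase signalling, was at 404 CPM in the stromal-like class and 75.5 CPM in the endothelial-like class, for a log2 ratio of 2.42 (2.32 to 2.52). Lrig1, the ETS factor Etv4 and the MAP kinase phosphatase Dusp4 had log2 ratios of 3.44 (2.33 to 4.79), 3.26 (1.80 to 5.20) and 3.00 (2.00 to 4.18). Between osteolineage-like and stromal-like cells 6 of 15 were lower and 1 higher, beside 8.77% lower and 5.75% higher over all measured genes, with Dusp4 at -1.91 (-4.99 to -0.01) and Il17rd at -1.66 (-3.55 to -0.26). In arterial-like against sinusoidal-like cells 2 of 12 were lower and 1 higher, beside 7.07% lower and 9.18% higher, with Etv5 at -2.22 (-4.51 to -0.66) and Spred3, on 1 UMI, at -1.70 (-7.04 to 0.84). Inside LepR_tdT, 1 of 9 was higher and 3 were lower in endothelial-like than in stromal-like cells, beside 17.3% higher and 20.5% lower, with Spry1 at -3.15 (-4.28 to -2.22).

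Set against stromal-like cells, the Cxcl5-led cluster had 3 of 15 measured genes of this list higher by at least 2-fold, 2 lower and 10 neither, where 3.95% of 11684 measured genes were higher and 7.0% lower. The higher ones were Etv4 at 2.75 (2.02 to 3.46), Etv5 at 1.24 (0.63 to 1.80) and Lrig1 at 1.11 (0.31 to 1.84) on the log2 scale, and the lower ones Dusp5 at -1.43 (-3.08 to -0.17) and Il17rd at -1.49 (-3.13 to -0.23), on 5 UMIs each in the cluster. At the finer clustering 1 of 15, Etv4 at 1.77 (1.00 to 2.56), was higher, 0 were lower and 14 were neither. The Cxcl5-led cluster had Etv4 at 20.0 CPM (13.5 to 28.6), Etv5 at 21.4 CPM (14.6 to 30.2), Spry1 at 754 CPM (711 to 799), Spry4 at 92.2 CPM (77.4 to 109) and Dusp6 at 180 CPM (159 to 203). Stromal-like cells had Etv4 at 2.98 CPM (2.14 to 4.02), Etv5 at 9.07 CPM (7.57 to 10.8), Spry1 at 404 CPM (394 to 415), Spry4 at 58.5 CPM (54.6 to 62.7) and Dusp6 at 130 CPM (124 to 136). These 5 were apart by their intervals in the same clustering, and none was used to form the clusters, but they and the comparison were chosen after their values were seen. Immediate early and stress genes summed to 13913 CPM in the Cxcl5-led cluster and 7572 CPM in stromal-like cells, and their part in these differences was not tested.

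**Figure D4:**
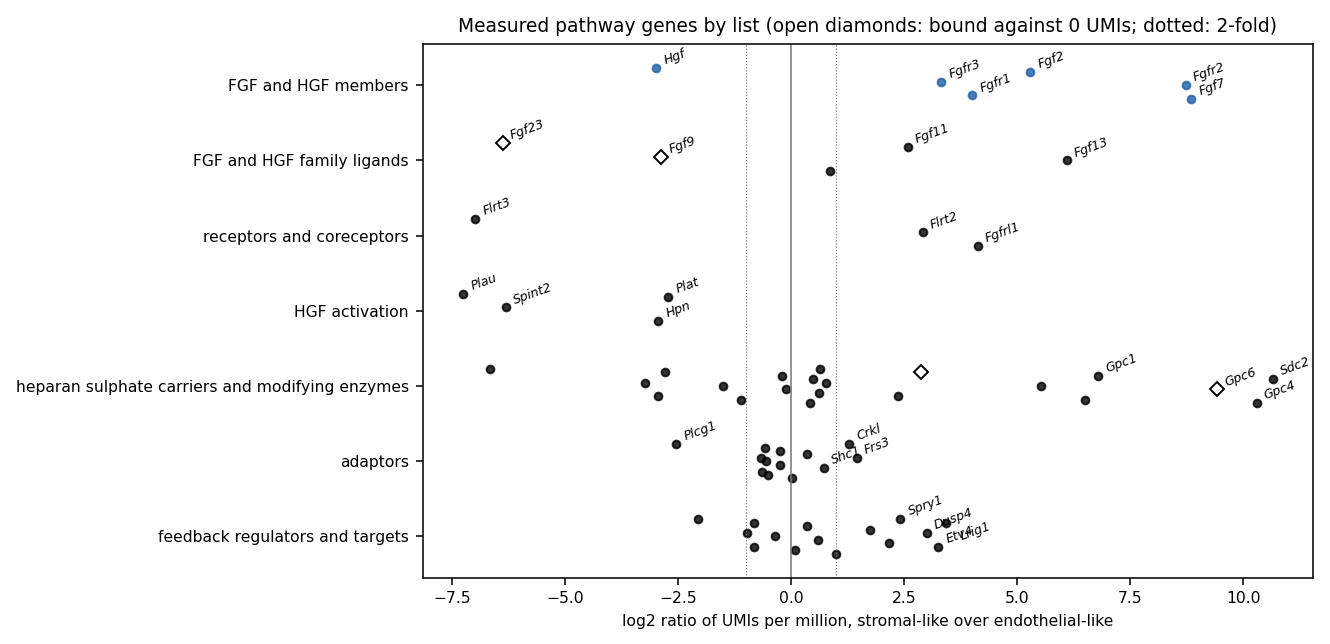
Log2 ratio of CPM, stromal-like over endothelial-like cells, for the measured members (blue) and the measured genes of the pathway lists (black), 1 row per list. Open diamonds are bounds against 0 UMIs and dotted lines are 2-fold; genes given by name in the text for this comparison are labelled. The 4 measured of 10 listed genes of HGF activation lie left of the 2-fold line, and 10 of 13 adaptors lie between the dotted lines.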

How the data were processed

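Each group is 1 library. The deposited matrix holds raw UMI counts per gene for all barcodes, and the authors' cell table says which barcodes are cells; Cell Ranger 2.1.1, Seurat 2.3.4 and mm10 are named per the submitters' processing notes, without roles. The LepR_tdT library held 18139911 of its 21983361 UMIs in cells (82.5%) and the EC library 14111524 of 18152304 (77.7%). Every cell of the table was kept. Counts were scaled to 10000 per cell and logged; of the 2000 most variable genes, those in fewer than 10 cells, mitochondrial genes, tdTomato, the members and the pathway lists were removed, leaving 1574. After scaling, 30 components and 15 neighbours gave Leiden clusters at resolution 0.5 (best of 20 seeds). A name needed at least 3 markers of a list at 1.5-fold or more. A cluster stayed unnamed if mitochondrial genes led it, or if its leading genes held more markers of another list, as in the Cxcl5-led cluster. A shallow cluster with no marker of its list among its leading genes also stayed unnamed. Vessel types needed 3 markers at 2-fold over the lowest endothelial-like cluster.

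UMIs were summed per class and given per 1000000 UMIs of the class (CPM), with exact Poisson, conditional binomial and Clopper-Pearson 95% intervals. No test was made. A count of 0 was set to 3 UMIs over the class for bounds. Genes with at least 20 UMIs in both classes together were measured. Either class alone could supply them, so counts of genes higher or lower are descriptions and not tests. All members were named, and of each pathway list up to 4 measured genes with the largest ratio between stromal-like and endothelial-like cells and up to 2 in every other comparison. The share of free RNA in a class was estimated from 20 erythroid and granulocyte genes. The members and lists were chosen with earlier results of these data known, and the vessel type rule was set after the clusters were seen. Scrublet marked 1 LepR_tdT and 0 EC cells as doublets and thus did not work here, so none were removed. Positions are from GENCODE M21, which holds 27645 of the 27999 gene IDs, and promoters from RefSeq (6 of 7 members matched). The ratio procedure was tested on simulated data. Software was Python 3.11.15, scanpy 1.11.5, scipy 1.17.1 and, for other scalings, edgeR 4.0.16.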

Additional observations from a re-analysis of the deposited data

How the results depend on the processing

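Of 311 recomputed member ratios 302 stayed within the counting interval of the reported value, 9 moved; 6 changed sign, for Fgfr1 in arterial-like against sinusoidal-like cells (down to -0.34) and Fgfr2 in osteolineage-like against stromal-like cells (down to -0.04), both under 2-fold, and none past 2-fold did. Between stromal-like and endothelial-like cells no count of members higher or lower moved. The log2 ratios ran from 7.87 to 9.40 for Fgf7, 4.67 to 6.19 for Fgf2, 8.65 to 9.43 for Fgfr2, 3.90 to 4.47 for Fgfr1, 3.11 to 3.36 for Fgfr3 and -3.06 to -2.66 for Hgf over 14 alternatives, where the 4.67 of Fgf2 and the 9.43 of Fgfr2 are lower bounds with free RNA subtracted. In arterial-like against sinusoidal-like cells the 1 member counted as higher (Fgfr3) became 0 at resolution 1, with the lists kept in the clustering, after thinning, with at least 50 UMIs, at 4-fold and without the Apold1-led cluster, and the 1 counted as lower (Hgf) became 0 at resolution 1 and after thinning. In osteolineage-like against stromal-like cells the 1 higher became 0 at 4-fold, and the 2 lower became 1 with free RNA subtracted, with at least 50 UMIs or at 4-fold and 0 after thinning. Inside LepR_tdT the 1 higher (Hgf) became 0 after thinning and with at least 50 UMIs, and its log2 ratio was 1.82 with the lists kept in the clustering; the 4 lower became 3 after thinning (Fgfr3 at -0.36) and with free RNA subtracted (Fgfr3 at most -0.60). Counting thresholds and thinning leave fewer UMIs by construction; for the other settings the cause was not tested. TMM moved all genes by -0.15 on the log2 scale between arterial-like and sinusoidal-like cells and by at most 0.08 in either direction elsewhere. The 5% of cells with the highest doublet scores, the 42 shared barcodes, the H2-Aa-led and Apold1-led clusters were left out, and single-cell means taken, as alternatives chosen after seeing the data. Free RNA subtraction was not run for the whole libraries, which hold the blood cells its share is judged from. No paired analysis was possible because each group is 1 library, and for the same reason no replicate could be left out.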
